A study of Mus musculus with 11 samples.

Results

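The genes described here are 48 genes of DNA replication and nucleotide supply, out of 19933 genes that the arrays named. They were taken by symbol, from probe sets that carry exactly 1 gene symbol, and where a gene had several probe sets the one with the highest mean over all 11 arrays stood for it. All 48 were measured, and all 48 passed the filter on low values in the progenitor arrays and in the set of 11 arrays.

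The arrays measured messenger RNA of cells sorted by flow cytometry from C57Bl/6 mice at steady state. WT mice were Zbtb46+/+, Het mice Zbtb46 gfp/+ and KO mice Zbtb46gfp/gfp, so Het carried 1 and KO 2 gfp alleles of Zbtb46. The labels used here give neither ages nor the number of mice behind an array. From bone marrow of each genotype 3 lineage-negative, CD117-positive populations without CD41 and CD16/32 were sorted: Pre MegE (CD150+ CD105-), Pre CFU-E (CD150+ with low CD105) and CFU-E (CD150- CD105+). These are successive stages from a shared megakaryocyte and erythroid progenitor to the erythroid colony-forming cell, and each was hybridised once per genotype, which gave 9 arrays. The other 2 arrays hold splenic CD4+ dendritic cells (DC), 1 from WT and 1 from KO. Their gate took cells positive for CD11c, MHCII, CD172, CD11b and CD4 and negative for B220 and CD8. A stage is thus compared over 3 arrays that differ in genotype, a genotype over 3 arrays that differ in stage, and nothing replicates a DC array. The labels do not say whether mice were shared between stages, and the p-values measure only the spread between these arrays, which may be technical.

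Replication starts when the origin recognition complex, with Cdc6 and Cdt1, loads the ring of Mcm2 to Mcm7 onto DNA, a step called licensing that geminin (Gmnn) restrains by binding Cdt1. In S phase Cdc45 and the GINS proteins turn the ring into an active helicase, DNA polymerase alpha with primase begins each strand, and polymerases epsilon and delta extend it on the sliding clamp Pcna, which the Rfc complex loads. Ribonucleotide reductase (Rrm1, Rrm2), thymidylate synthase (Tyms), thymidine kinase (Tk1) and dUTPase (Dut) shape the supply of deoxynucleotides. Many of these genes are textbook targets of E2F transcription factors, and early erythroid progenitors are known for rapid division, whereas most splenic DC are not dividing.

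Promoter windows are shown for a few members chosen by hand: licensing factors that rose strongly (Cdc6, Orc1), genes lower in DC (Dtl, Mcm5, Mcm6) and the gene with the largest rise (Rrm2). Apart from Rrm2, all have a match to the E2F words given below upstream of the start, so they do not represent the 48. In DC, Mcm5 (-2.64) was near the median of the 48 (-2.61). Rfc4 (-3.94), Prim1 (-3.40) and Rpa3 (-3.32) were lower there and have no such match in their windows. The sequences come from RefSeq on build GRCm38.p6, whose table holds a window of 250 bases before to 50 bases after the gene start for 40 of the 48 genes (Gmnn, Mcm4, Gins1, Gins2, Gins4, Prim2, Pole and Rfc2 have no entry). Each stretch lies upstream of the start and is written 5′ to 3′ on the strand of the gene. Capitals mark a match to TTTGGCGC, TTTCCCGC, TTTCGCGC or TTTGCCGC, common forms of the E2F site, on either strand, except in Rrm2, where they mark CCAAT. Where 2 matches overlap, as in Mcm5 and Mcm6, they form 1 run of capitals. The stretches are chr11:98907983-98908082 (plus strand) for Cdc6, chr4:108579354-108579453 (plus) for Orc1, chr1:191575545-191575644 (minus) for Dtl, chr8:75109326-75109425 (plus) for Mcm5, chr1:128359715-128359845 (minus) for Mcm6 and chr12:24708154-24708253 (plus) for Rrm2.
Cdc6: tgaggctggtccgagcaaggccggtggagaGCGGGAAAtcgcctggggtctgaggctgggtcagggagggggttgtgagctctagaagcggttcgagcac
Orc1: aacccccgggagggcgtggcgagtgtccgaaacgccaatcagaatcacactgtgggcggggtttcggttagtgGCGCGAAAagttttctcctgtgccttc
Dtl: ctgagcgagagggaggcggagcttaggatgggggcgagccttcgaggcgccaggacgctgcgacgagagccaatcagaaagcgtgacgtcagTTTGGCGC
Mcm5: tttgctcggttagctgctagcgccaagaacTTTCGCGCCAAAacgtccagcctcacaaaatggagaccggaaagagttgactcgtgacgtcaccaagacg
Mcm6: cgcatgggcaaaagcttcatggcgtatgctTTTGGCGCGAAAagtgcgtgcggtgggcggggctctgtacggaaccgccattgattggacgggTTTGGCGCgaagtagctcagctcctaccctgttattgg
Rrm2: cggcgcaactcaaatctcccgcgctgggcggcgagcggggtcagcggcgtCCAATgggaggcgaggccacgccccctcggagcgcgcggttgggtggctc

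In these windows the match begins 138 bases before the start in Cdc6, 27 in Orc1 and 8 in Dtl, while Mcm5 has matches at 153 and 149 and Mcm6 at 110, 106 and 47 bases before it. At least 1 of the 4 E2F words stood in a window of 15 of the 40 genes (37.5%), against 2.6% of the 27025 genes in the table. Some genes, 4 of the 40 among them, have several windows, and a word in any of them counted. Lig1 and Mcm7 have E2F words in only 1 of theirs. Of the MCM ring, 4 of the 5 genes with a window had one (Mcm3, Mcm5, Mcm6 and Mcm7), and over all members 5 had 2 or more words, against 0.11% of all genes. CCAAT was found for 60.0% of members and 41.1% of all genes. The Sp1 word GGGCGG was found for 75.0% and 38.2%, and the CHR word TTTGAA for 12.5% and 20.2%. Rrm2 has none of the 4 E2F words in its window. A match is a description of letters, and its absence says only that these letters are not in the window.

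On the progenitor arrays 47 of the 48 genes were at or above the array median of all probe sets everywhere. Gmnn was below it at Pre MegE, so its rise is best read as a lower bound, and it passed the filter only through the later stages. Array medians were between 195.66 and 218.37 intensity units. Upper quartiles were between 967.58 and 1009.25 in progenitors and were 641.43 in WT DC and 604.76 in KO DC, so intensities of DC and progenitors are not on equal distributions. All 10 measured erythroid markers rose from Pre MegE to CFU-E, and all 6 tested stem and progenitor markers fell. All 14 classical DC markers were higher in DC than in progenitors. The RNA of the sort gate genes followed the gates only in part. Slamf1 (CD150) was 11.44 to 11.51 at Pre MegE and 6.47 to 6.98 at CFU-E. Eng (CD105) was nearly level, 11.78 to 11.81 and 11.76 to 11.84 at the same stages. Itga2b (CD41), which was gated out, was 10.85 to 10.94 at Pre MegE. Zbtb46, the targeted gene, had log2 intensity 9.67 in WT DC and 8.02 in KO DC. In CFU-E it was 8.87 in WT, 8.62 in Het and 7.50 in KO, and at Pre MegE it lay between 7.52 and 7.71 in all genotypes, below the array medians.

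From Pre MegE to Pre CFU-E the replication genes rose almost as a body. A gene is called changed at a limma adjusted p under 0.05 (Benjamini-Hochberg over 10701 genes), and 41 of the 48 rose and 0 fell, while over all tested genes 37.1% rose and 29.3% fell. The median difference of the 48 was 0.43 on the log2 scale, beside 0.038 for all genes tested. The largest rises were in Rrm2, the regulatory subunit of ribonucleotide reductase (1.20), Fen1, the flap nuclease of Okazaki fragments (1.06), Cdc6 (1.03), Orc1 (0.99), Gmnn (0.97) and Mcm10, which helps start the helicase (0.90). All 6 had the same sign in 3 of 3 genotypes. The 7 genes that were not called were Mcm6 (0.10), Pola1 (0.11), Pold3 (0.09), Pcna (0.06), Rfc1 (0.05), Dtl (0.05) and Rfc2 (-0.03). With arrays centred on their medians, which moves the median of all genes to 0.12, 47 were called, and after quantile normalization 37 were.

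Rrm2 had the largest change of all 48, and its log2 intensity at Pre MegE was 10.30 in WT, 10.32 in Het and 10.39 in KO. At Pre CFU-E it was 11.62, 11.43 and 11.55, and at CFU-E 12.37, 12.38 and 12.23 in the same order. No array of one stage overlapped an array of another. The span from Pre MegE to CFU-E was 1.99 (SE 0.0647, 3.97-fold, limma adjusted p = 5.8e-09). Its partner Rrm1, the catalytic subunit, rose by 0.61 over the same span, with 12.50 to 12.58 at Pre MegE and 13.14 to 13.18 at CFU-E.

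The rise went on at the second step, Pre CFU-E to CFU-E, with smaller differences. At this step 35 of the 48 rose and 1 fell, against 18.7% and 25.3% of all tested genes, and the median was 0.26 beside -0.0046 for all genes. The largest were Rrm2 (0.79), Tk1 (0.67), Gmnn (0.59), Rpa3, the small subunit of the single-strand binding protein (0.54), Cdc6 (0.49) and Orc6 (0.47), each higher in 3 of 3 genotypes. Pold2, the second subunit of polymerase delta, was the gene that fell (-0.14, SE 0.043, adjusted p = 0.026). Its log2 intensity was 12.33 to 12.40 at Pre CFU-E and 12.18 to 12.26 at CFU-E, 2 ranges that do not overlap. The call was lost without any 1 of 5 arrays (WT Pre CFU-E, WT CFU-E, Het Pre CFU-E, Het CFU-E and KO Pre CFU-E, adjusted p up to 0.101), with arrays centred, without the filter and with only these 2 stages in the fit.

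Over the whole span 47 of the 48 genes rose and 0 fell, against 41.5% and 35.1% of all tested genes, with a median of 0.66 beside 0.050. The 6 largest were Rrm2 (1.99), Gmnn (1.56), Cdc6 (1.52), Tk1 (1.47), Fen1 (1.44) and Orc1 (1.42). Every CFU-E array lay above every Pre MegE array for 47 genes, a pattern that 43.0% of all tested genes had. The exception was Rfc2, a clamp loader subunit, with -0.03 (SE 0.0919), where the 3 genotypes ran from -0.23 in KO to 0.21 in WT. At both single steps 32 genes were called higher, and 11 rose by at least 2-fold over the span. No share over all genes was computed for these counts. A rise at both steps in 3 of 3 genotypes, called or not, was seen for 40 genes and for 19.3% of all tested genes.

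**Figure D1:**
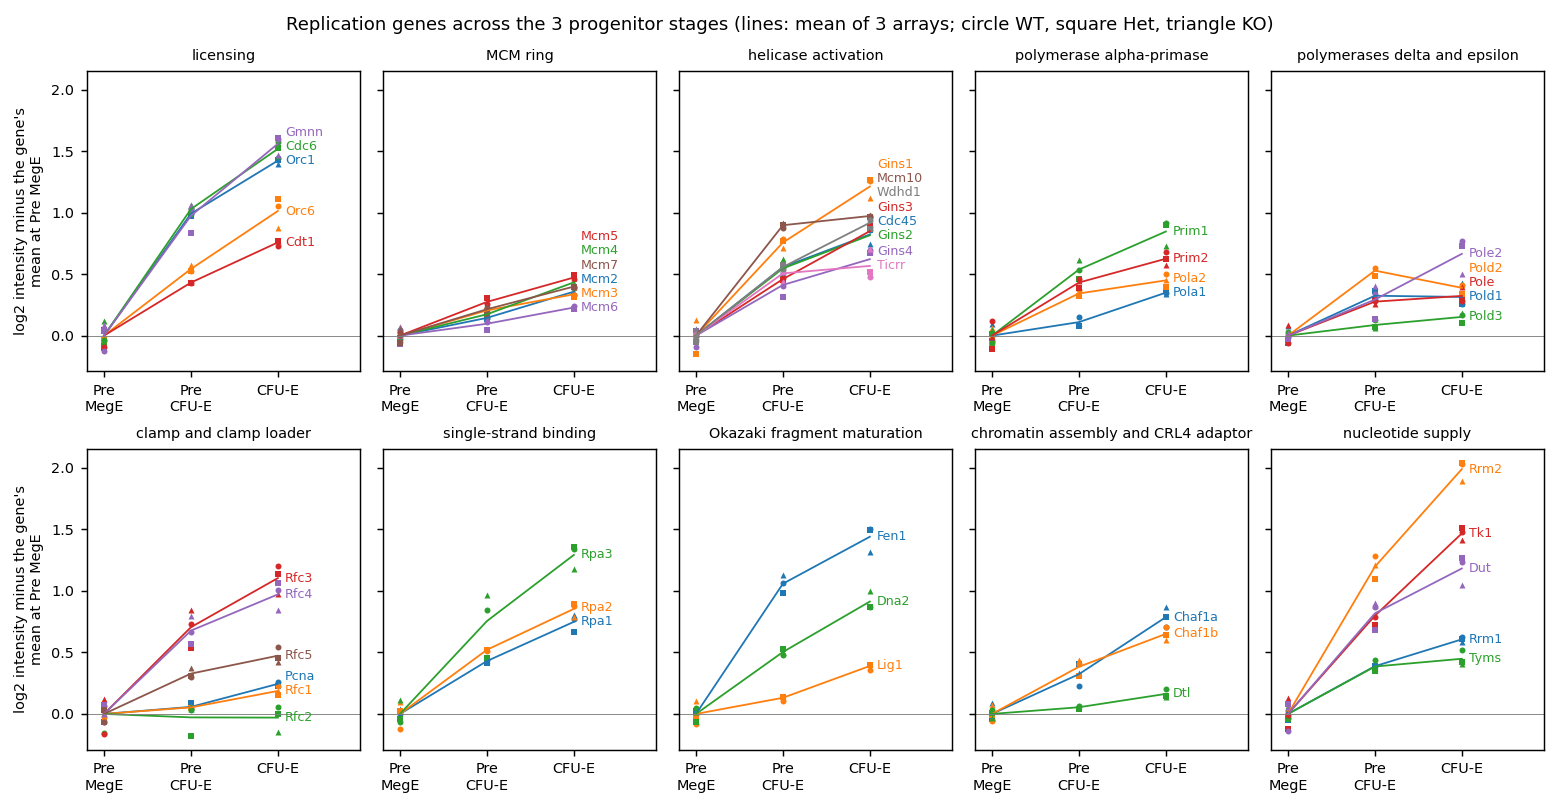
Log2 intensity of each of the 48 genes at the 3 progenitor stages, minus that gene's mean at Pre MegE, in 10 panels by role. Lines join means of 3 arrays, and circles, squares and triangles are WT, Het and KO arrays. Licensing and nucleotide supply panels reach furthest (Rrm2 at 1.99, Gmnn at 1.56), the MCM ring stays within 0.47, and Rfc2 is flat.

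The size of the rise differed between the roles. All 5 licensing genes rose at both steps, with a median span of 1.42. Orc1, the largest subunit of the origin recognition complex, went from 8.81 to 8.96 at Pre MegE to 9.88 to 9.92 at Pre CFU-E and 10.31 to 10.35 at CFU-E, so that the stages did not overlap. Cdc6 went from 8.94 to 9.14, through 10.02 to 10.09, to 10.48 to 10.60. Gmnn rose from 7.16 in WT, 7.32 in Het and 7.37 in KO to 8.88, 8.89 and 8.75, a span of 1.56 (SE 0.0801, adjusted p = 1.12e-07). As it entered the fit only through the stages where it was high, its call is not independent of the filter. With the filter set on every array, which drops Gmnn, 40 genes rose at the first step, 35 at the second and 46 over the span. Cdt1, the loading factor that Gmnn binds, rose by 0.76, the smallest span of the 5, and Orc6 by 1.01.

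The 6 genes of the MCM ring, which licensing loads, rose by less than the licensing genes. Their spans ran from 0.23 (Mcm6) to 0.47 (Mcm5), with a median of 0.38, and all 6 were called. At the first step 5 of 6 were called, and Mcm6 was not (0.10, adjusted p = 0.0946). Mcm2 was 12.31 to 12.38 at Pre MegE, 12.47 to 12.50 at Pre CFU-E and 12.66 to 12.75 at CFU-E, and Mcm7 12.56 to 12.67, 12.80 to 12.86 and 13.02 on all 3 CFU-E arrays. At the second step limma called Mcm3 (0.13, adjusted p = 0.046) and Mcm6 (0.13, adjusted p = 0.0452), and each call was lost in 8 of the 9 fits that leave out 1 array.

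Among the 8 genes that activate the helicase, all rose over the span (0.57 to 1.21, median 0.84). Gins1, a GINS subunit, rose by 1.21 (SE 0.0749), from 9.03 to 9.32 at Pre MegE to 10.30 to 10.45 at CFU-E. Cdc45, Gins2 and Gins3 rose by 0.82, 0.82 and 0.85, and Wdhd1, the fork protein that ties the helicase to polymerase alpha, by 0.92. Mcm10 had nearly all of its rise in the first step. It stood at 10.03 to 10.06 in Pre MegE, 10.92 to 10.95 in Pre CFU-E and 11.01 to 11.02 in CFU-E. The firing factor Ticrr did likewise (0.51, then 0.06).

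The 4 genes of polymerase alpha and primase rose by 0.35 to 0.85, led by Prim1, the catalytic primase subunit. In polymerases delta and epsilon all 5 rose over the span (0.15 to 0.66), and the second step held little of it: 1 of 5 rose (Pole2, 0.37), and Pold1, Pole and Pold3 had -0.01, 0.05 and 0.07. Of the clamp and its loader 5 of 6 rose. Rfc3 (1.10) and Rfc4 (0.97) were far above Rfc5 (0.47), Rfc1 (0.19) and Rfc2 (-0.03), although all 5 belong to 1 loader complex. Pcna rose by 0.24, from 13.17 to 13.30 up to 13.47 to 13.50. Its 2 probe sets gave the same values on all progenitor arrays, so they are not separate evidence, and related copies of the gene could share its probes.

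Of the single-strand binding protein all 3 subunits rose, Rpa3 by 1.29, Rpa2 by 0.85 and Rpa1 by 0.75. Among genes that finish Okazaki fragments the nuclease Fen1 rose by 1.44 (SE 0.0645, adjusted p = 4.49e-08), the helicase and nuclease Dna2 by 0.91 and the ligase Lig1 by 0.39. Fen1 was 10.24 to 10.28 at Pre MegE, 11.24 to 11.39 at Pre CFU-E and 11.58 to 11.77 at CFU-E. The chromatin assembly subunits Chaf1a and Chaf1b rose by 0.79 and 0.65, and Dtl, the adaptor of the CRL4 ubiquitin ligase that removes Cdt1, by 0.16. In nucleotide supply all 5 rose: Rrm2 by 1.99, Tk1 by 1.47, Dut by 1.18, Rrm1 by 0.61 and Tyms by 0.45. Tk1 and Rpa3 each have a second probe set, which also rose from every Pre MegE array to every CFU-E array at another level.

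The 2 steps were compared directly in the same fit. For 12 of the 48 genes the second step was smaller than the first at an adjusted p under 0.05, and for 0 it was larger, while 24.1% of all tested genes had a lower and 14.6% a higher second step. The share of 12 in 48 is thus near that of all genes. The largest were Mcm10 (-0.82, SE 0.0762, adjusted p = 8.75e-05), Fen1 (-0.68), Pold2 (-0.67), Orc1 (-0.56), Cdc6 (-0.54) and Dut (-0.45). The others were Ticrr, Rrm2, Pold1, Tyms, Cdc45 and Pola2. None of the MCM ring, the clamp and loader, the single-strand binding protein or the chromatin genes was among them. Without the WT Pre CFU-E array the count was 5, and 5 genes kept the call under every alternative.

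**Figure D2:**
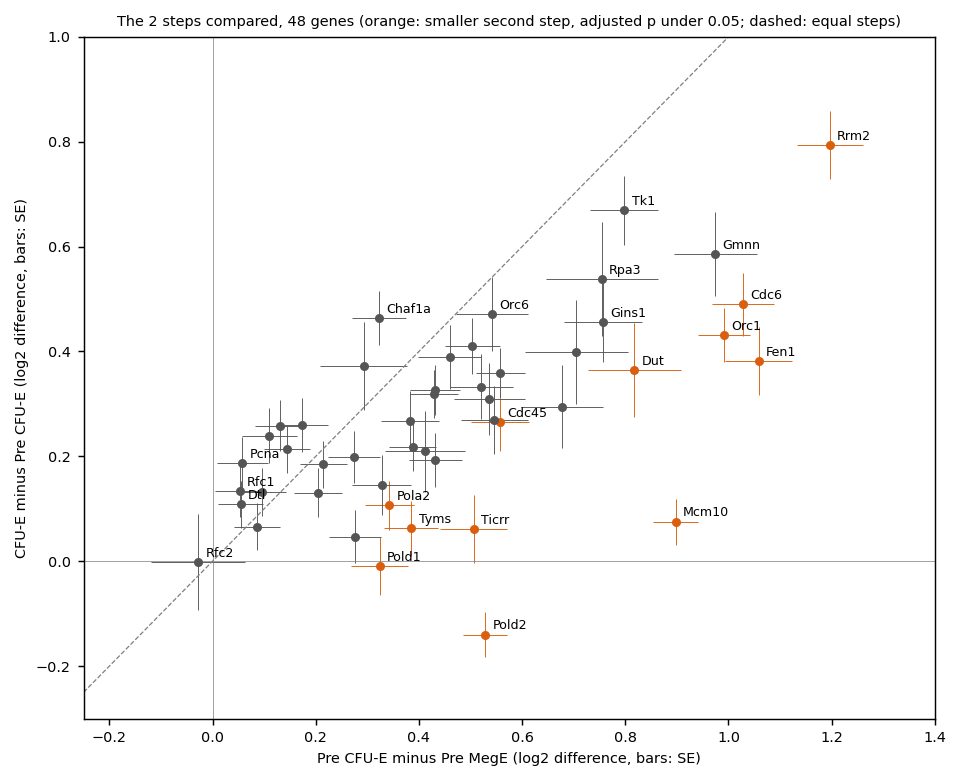
Each point is 1 of the 48 genes, with the Pre MegE to Pre CFU-E difference on the horizontal axis and the Pre CFU-E to CFU-E difference on the vertical axis, both on the log2 scale with SE bars. The 12 orange genes, all below the dashed line of equal steps, had a smaller second step; Rrm2 lies furthest out (1.20 and 0.79) and Pold2 alone is clearly under 0 on the vertical axis (-0.14).

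Genes outside the 48 that serve the same processes moved in the same direction in the main. Of 42 other replication factors 32 rose and 2 fell at the first step, and 35 rose and 3 fell over the span. Over all tested genes 37.1% rose and 29.3% fell at the first step, and 41.5% and 35.1% over the span. Recql4, a helicase of the initiation complex, rose most over the span (1.80), then Orc2 (1.38) and the histone chaperone Nasp (1.35). Pold4, the small accessory subunit of polymerase delta, fell by 1.31, Mcm9, which is not part of the Mcm2 to Mcm7 ring, by 0.47 and Chtf8 by 0.20.

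Among 17 genes of the E2F and pocket protein group 11 rose and 2 fell over the span, and 9 rose and 3 fell at the first step. The shares of all tested genes that rose and fell were 41.5% and 35.1% over the span and 37.1% and 29.3% at the first step. E2f4 rose by 1.23, Rb1 by 0.64 and E2f2 by 0.62, while the pocket protein Rbl2 (-0.47) and E2f7, a repressor E2F (-0.24), fell. Of 34 other genes of nucleotide metabolism 22 rose and 3 fell over the span. The folate enzymes Mthfd2 and Mthfd1 rose by 1.85 and 1.37 and the guanylate kinase Guk1 by 1.32, and Ctps2 (-0.98), Shmt1 (-0.91) and Dctd (-0.21) fell. For 25 of these 34 the second step was smaller than the first, against 24.1% of all tested genes. Repair and translesion polymerases were divided, with 5 of 13 higher and 4 lower over the span, among them Polq (1.28) and Polk (-0.39). These shares are near those of all tested genes. The 15 members with an E2F word had a median span of 0.40 and the 25 with a window and no such word 0.82, which is a description and was not tested.

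Among progenitors no gene of the 48 was called between genotypes, which does not show that the levels were equal. KO against WT called 0 of 48 (1 at an unadjusted p under 0.05), against 0.14% of all tested genes. Het against WT called 0 (1 unadjusted), against 0.0374%, and KO against Het 0 (0 unadjusted), against 0%. The largest mean KO minus WT differences were Chaf1a (0.14, SE 0.0521, adjusted p = 0.803), Lig1 (0.09) and Pold1 (0.09) on the higher side, and Gins3 (-0.10), Prim2 (-0.08) and Pole2 (-0.06) on the lower. For Het against WT they were Chaf1a (0.09), Cdt1 (0.06) and Rpa2 (0.06), and Prim2 (-0.12), Rpa3 (-0.12) and Pole2 (-0.09). For KO against Het they were Rpa3 (0.16), Tk1 (0.10) and Pold1 (0.08), and Gins3 (-0.04), Fen1 (-0.03) and Orc6 (-0.02). Of these, the signs of Pole2 in KO against WT, of Rpa2 and Rpa3 in Het against WT and of Gins3, Fen1 and Orc6 in KO against Het reverse when 1 array is left out.

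Within the stages the KO minus WT differences were small and leaned differently. At Pre MegE 37 genes were higher and 11 lower in KO (median 0.08), at Pre CFU-E 34 and 13 (median 0.02) and at CFU-E 15 and 33 (median -0.06). Over all tested genes the medians were 0.0026, 0.0043 and -0.0031. Of those genes 50.9%, 52.5% and 47.9% were higher in KO and 48.2%, 42.1% and 50.9% lower, in the same order of stages. The range at CFU-E ran from -0.27 to 0.23. As 1 array stands for each genotype and stage, all 48 values of a stage share the same pair of arrays and no error can be given.

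The span from Pre MegE to CFU-E had a median of 0.77 in WT, 0.72 in Het and 0.62 in KO. It was smallest in KO for 34 of the 48 genes, which holds for 38.4% of all tested genes. A term for the KO span, added after these values had been seen, called 0 of 48 (6 at an unadjusted p under 0.05). Rfc3 had the lowest estimate for it (-0.37, SE 0.178, adjusted p = 0.742), with spans of 1.36 in WT, 1.09 in Het and 0.85 in KO. The count was 36 with arrays centred and 27 after quantile normalization.

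**Figure D3:**
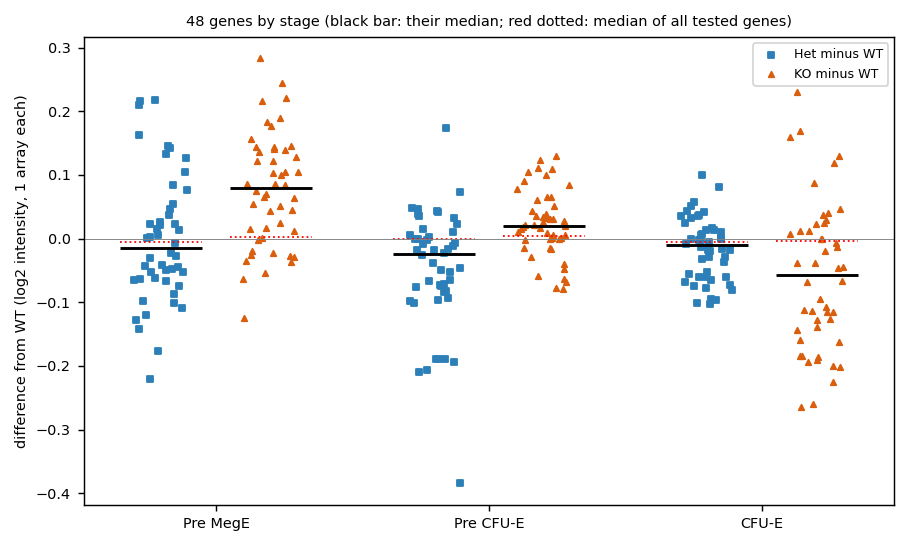
Het minus WT (squares) and KO minus WT (triangles) differences of the 48 genes in log2 intensity at each stage, 1 array per genotype. Black bars are medians of the 48 and red dotted lines medians of all tested genes; the KO bars go from 0.08 at Pre MegE to -0.06 at CFU-E, while the Het bars stay between -0.01 and -0.02.

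In splenic DC nearly all replication genes were far lower than in the progenitors. Against the mean of the 3 stages 47 of 48 were lower and 1 was higher (limma over 11560 genes), where 64.6% of all tested genes were lower and 25.3% higher. The median was -2.61 beside -0.59 for all genes, and -2.18 beside -0.10 after quantile normalization. Both DC arrays lay below all 9 progenitor arrays for 47 of the 48, and for 57.8% of all tested genes. Against Pre MegE alone, the stage with the lowest levels, 47 were again lower and 1 higher, with 65.7% and 22.5% of all tested genes, and the median was -2.17. Both counts include Orc1, Gmnn and Gins1, which were below the array median on both DC arrays and passed the filter through their progenitor levels. With the filter set on every array, which drops such genes, 40 were lower and 1 higher in each comparison. In sorted bulk cells, fewer cells of a dividing kind and less RNA of these genes per cell cannot be told apart.

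The largest differences from progenitors were in Rfc4, a clamp loader subunit (-3.94, SE 0.117, adjusted p = 1.19e-10), Dtl (-3.74), Mcm6 (-3.56), Mcm7 (-3.52), Prim1 (-3.40) and Rpa3 (-3.32), each lower in both genotypes. The place of Rpa3 depends on its probe set. Its second one was also lower in DC but by less, with 8.11 in WT DC and 7.98 in KO DC against 8.94 to 10.30 in progenitors. Rfc4 had 8.78 in WT DC and 8.24 in KO DC against 11.85 to 12.98 in progenitors. Dtl had 8.37 and 7.46 against 11.55 to 11.79. Mcm6 had 9.24 and 8.41 against 12.19 to 12.50. In all 3 genes more than 2 log2 units separate the lowest progenitor array from the higher DC array. By role the medians ran from -2.24 (clamp and loader) to -3.10 (chromatin assembly and Dtl), with -2.92 in the MCM ring and -2.42 in licensing. At least 4-fold lower were 39 of the 48 genes, a count for which no share over all genes was computed.

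Dtl and Mcm6, which had changed little between the stages, were thus among the genes furthest below in DC. The smallest called falls were those of Pcna (-1.07), Pold3 (-1.30), Tk1 (-1.58), Rpa1 (-1.59) and Gmnn (-1.69). Pcna was 12.29 and 12.27 in DC, against 13.17 to 13.50. Orc1, Gmnn and Gins1 lay below the array median on both DC arrays, so their falls are best read as lower bounds.

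Dna2 was the 1 gene not lower in DC. It had 11.45 in WT DC and 11.29 in KO DC, inside the progenitor range of 10.62 to 11.68 and above all Pre MegE arrays. Against the mean of the progenitors the difference was 0.20 (SE 0.0636, adjusted p = 0.0119), which was lost without the WT DC array (0.11, adjusted p = 0.21) and ran from 0.11 to 0.82 over the alternatives. Against Pre MegE it was 0.67 (SE 0.0734, adjusted p = 5.97e-06) and kept its call under all of them.

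**Figure D4:**
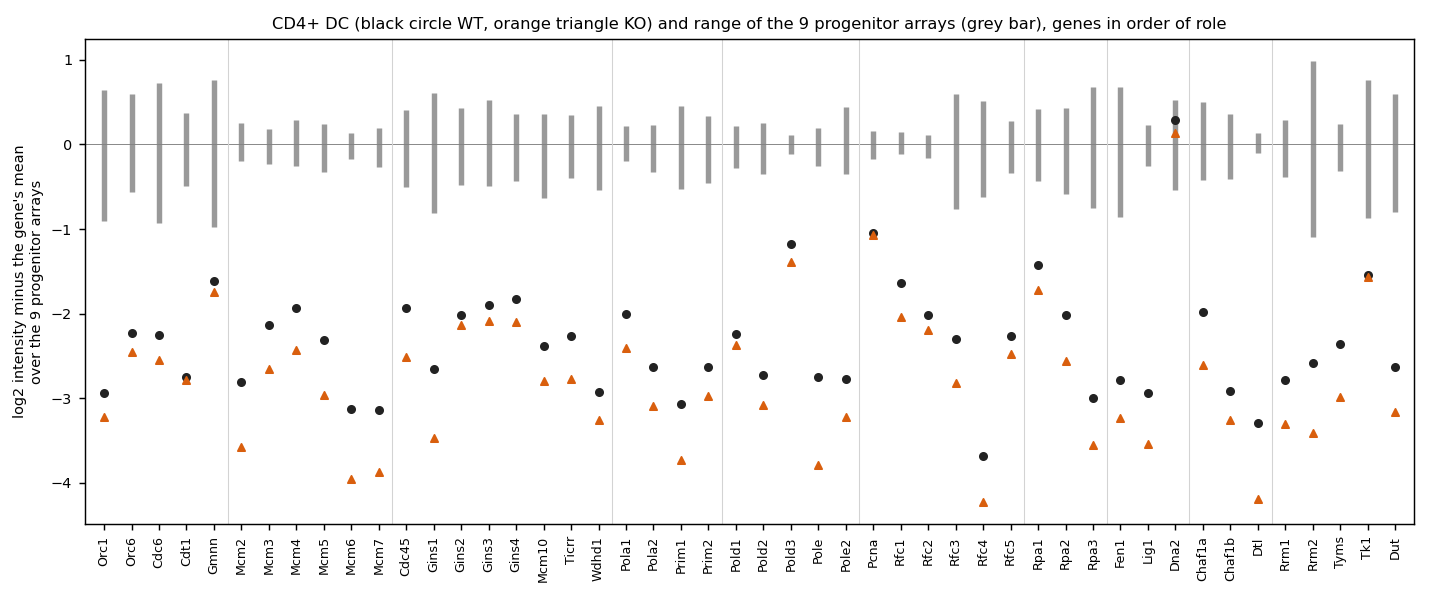
Log2 intensity in WT DC (black circles) and KO DC (orange triangles) for the 48 genes in order of role, minus each gene's mean over the 9 progenitor arrays, with the range of those 9 arrays as a grey bar. Only Dna2 lies within its bar; the KO triangle is below the WT circle for every gene, and Rfc4, Dtl and Mcm6 lie furthest down.

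Most genes of each of the 4 other lists were lower in DC too, beside the 64.6% of all tested genes. Of 42 other replication factors 40 were lower and 2 higher, Pold4 (0.78) and Donson (0.34), and Tipin (-3.13), Uhrf1 (-3.04) and Top2a (-2.99) were lowest. Of 17 E2F and pocket protein genes 15 were lower, with E2f6 and E2f8 at -2.82 each and Tfdp1 at -2.43, and Rb1 was higher (0.24). Of 34 other nucleotide genes 30 were lower and 4 higher, led by Samhd1, which degrades deoxynucleotides (1.82), and Mthfd2 (0.53). Of 13 repair polymerases 8 were lower, 4 were not called and 1 was higher, Polg2, the accessory subunit of the mitochondrial polymerase (1.66). The median of this list (-0.57) was near that of all tested genes (-0.59), and so was its share of lower genes.

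Within DC, all 48 genes were lower on the KO array than on the WT array. This is a difference of 2 arrays with no replicate and no test. The filter here asked for the array median on either array, and of the 10554 genes that reached it 61.2% were lower in KO. The 45 of the 48 genes among them had a median of -0.45, beside -0.051 for all, and 12 of the 45 were lower by more than 1.5-fold, against 1.77% of all tested genes. Orc1, Gmnn and Gins1 were not among the 45, and 7 of the 48 genes were below the array median in KO DC.

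Pole, the catalytic subunit of polymerase epsilon, had the largest difference, with 8.77 in WT DC and 7.73 in KO DC (-1.03, 2.05-fold). Dtl followed (8.37 and 7.46, -0.90), then Mcm6 (9.24 and 8.41, -0.83), Rrm2 (8.81 and 7.99, -0.82) and Mcm2 (9.70 and 8.93, -0.77). Gins1, which did not reach the filter, had 7.19 and 6.37. The remaining 7 past 1.5-fold were Mcm7, Prim1, Mcm5, Chaf1a, Tyms, Lig1 and Cdc45. By role the median was -0.69 in the MCM ring, -0.63 in chromatin assembly with Dtl and -0.54 in nucleotide supply. It was -0.31 in the clamp and loader, and -0.22 in the 3 licensing genes that passed. At the other end, Pcna (-0.03), Tk1 (-0.03), Cdt1 (-0.04), Gins2 (-0.12) and Pold1 (-0.13) had the smallest differences, and Tk1 and Cdt1 turn to 0.05 each after quantile normalization.

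The KO minus WT difference in DC was set against that in the progenitors by a term in a fit over all 11 arrays, in which the spread comes from the progenitor arrays, as DC has none of its own. The calls therefore carry no replicate check in DC, and any difference between the 2 DC samples or arrays, of whatever origin, enters them. For 21 of the 48 genes the DC difference was lower at a limma adjusted p under 0.05 and for 0 higher, against 3.01% and 1.56% of all tested genes. The lowest estimate was that of Pole (-1.11), then Dtl (-0.86), Mcm6 (-0.86) and Mcm2 (-0.83). Gins1 (-0.78) is among the 21 although it lay below the array median on both DC arrays and entered the fit through its progenitor levels. All 6 MCM ring genes were called. So were 4 of 8 helicase activation genes, 3 of 5 nucleotide supply genes, 2 of 3 chromatin genes, 2 of 4 polymerase alpha and primase genes and 2 of 5 delta and epsilon genes, but 0 of 5 licensing genes (2 at an unadjusted p under 0.05) and 0 of 6 clamp and loader genes (3 unadjusted). Of the licensing genes, Orc1 and Gmnn were below the array median on both DC arrays and Cdc6 on the KO array. Their differences are best read as lower bounds, so licensing and the MCM ring are not compared on equal terms here. For 43 of the 48 genes the DC difference was below all 3 stage differences, as for 41.0% of all tested genes. The count fell to 10 without the WT Pre CFU-E array and 12 without the KO Pre MegE array, and rose to 33 after quantile normalization. Mcm2, Mcm3, Mcm5, Mcm6, Mcm7, Pole, Lig1, Chaf1a, Dtl and Rrm2 kept the call under every alternative that could be fitted. None of these left out a DC array, because the term needs both. They therefore do not check the 2 arrays on which the calls rest.

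Markers of other cells also differed between these 2 DC arrays. Of 13 listed erythroid markers 10 were measured and 6 passed the filter in DC. Of those 6, Slc4a1 (9.41 in WT, 8.47 in KO), Alas2 (8.81 and 7.91), Car1 (8.02 and 7.42) and Car2 (9.91 and 9.32) were lower in KO by more than 1.5-fold, and Tfrc was higher (0.31). Slc4a1 and Alas2 were higher in WT DC than on any progenitor array, where the highest values were 9.23 and 8.22. The 4 measured markers that did not pass, Klf1, Gata1, Rhd and Epb42, were below the array median on both DC arrays. The mean over the 10 was 8.20 in WT DC and 7.85 in KO DC, against 10.29 to 11.59 in progenitors, and covers markers of both kinds. Of 7 red pulp macrophage markers C1qb (-0.78), Cd163 (-0.66) and Vcam1 (-0.62) were lower past 1.5-fold, and Spic (0.20) and Adgre1 (0.07) were not lower. The mean of the 7 was 10.52 in WT DC and 10.14 in KO DC, against 6.79 to 7.21 in progenitors. Csf3r, a receptor of the granulocyte and monocyte list, went from 9.55 in WT to 11.24 in KO (1.70), the largest increase among all genes tested in this pair. Cebpa (-0.0006) was the only other gene of the 7 on that list to pass the filter. The B cell markers that passed it, Ms4a1 (0.97) and Cd79b (0.26), were higher in KO. Of those that did not, Pax5 had 0.06 and Cd79a -0.69. Among the classical DC markers only Zbtb46 (-1.65) passed 1.5-fold, with a median of 0.01 over the 14. The part of these cells in the lower replication genes was not tested.

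**Figure D5:**
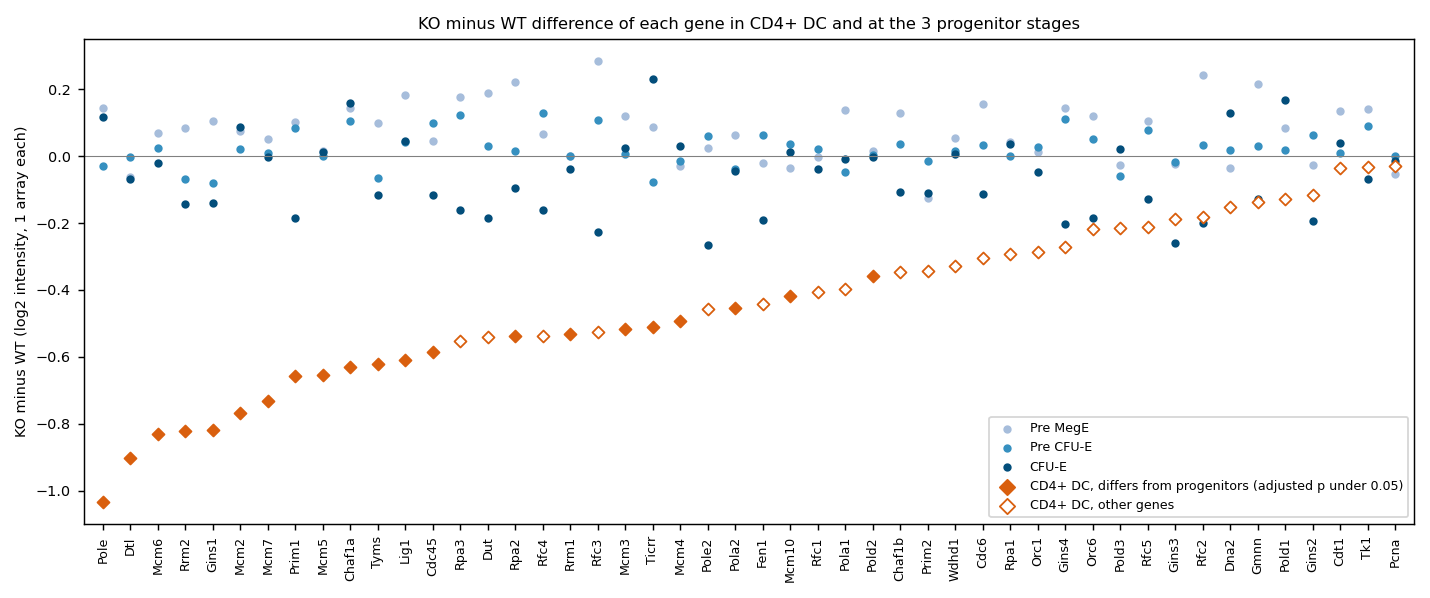
KO minus WT differences in log2 intensity of each gene, sorted by the difference in DC (diamonds), with the 3 progenitor stages as blue dots, 1 array per genotype in each. All 48 diamonds lie below 0, from -1.03 (Pole) to -0.03 (Pcna), and the 21 filled ones passed the limma threshold against the progenitor difference, with no replicate in DC; the dots stay between -0.27 and 0.28.

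In the related lists, too, more genes were lower than higher in KO DC, beside the 61.2% of all tested genes. Of 37 tested replication factors outside the 48, 35 were lower in KO and 4 past 1.5-fold: Top2a (-0.82), Uhrf1 (-0.69), Fbxo5 (-0.64) and Timeless (-0.61). The E2F group had 13 of 16 lower, with the repressors E2f7 (-0.82) and E2f8 (-0.72) past 1.5-fold. Nucleotide metabolism had 26 of 33 and repair polymerases 11 of 12 lower, each with 0 past 1.5-fold. Against the progenitors the DC difference was called lower for 7 of 42, 3 of 17, 1 of 34 and 2 of 13 genes of these lists, in that order, and higher for 0, beside the 3.01% and 1.56% of all tested genes. The share of nucleotide metabolism genes is near that background. Members with an E2F word had a median KO minus WT difference in DC of -0.46 and those with a window and no such word -0.45.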

How the data were processed

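The authors deposited 1 linear intensity for every probe set of each array. The submitters' processing notes name RMA, without a version. The log2 of each value was taken with no further scaling. Of 29674 probe sets, 21780 had 1 symbol in the platform annotation, 1618 had several and 6276 were unnamed here. A gene was fitted where 2 or more arrays reached their own median. Two-sided tests with limma 3.58.1 (R 4.3.3; lmFit and eBayes, Benjamini-Hochberg adjusted p under 0.05) were run on stage and genotype over the 9 progenitor arrays (10701 genes, 4 residual degrees of freedom, median residual SD 0.0705). They were also run on cell type and genotype over all 11 (11560 genes, 5 degrees of freedom), and with a term for KO in DC (4 degrees of freedom). The fits were tested on simulated data that gave DC the spread of the other arrays. That test cannot tell how far calls on the unreplicated DC arrays hold. The DC pair was counted past 1.5-fold. RMA commonly gives arrays equal distributions, but those of DC and progenitors differ here, so levels between them depend on scaling, and quantile normalization is given beside them. The number of arrays limits the precision.

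The members and lists were chosen with earlier results of these data known. Named were, by rule, the 6 largest called differences each way for stages and DC, 3 each way for genotypes without calls, 5 each way for the DC pair and up to 3 called genes each way from other lists; all 48 members could be named. Genes outside these rules were chosen after their values were seen. Alternatives were other scalings, filters, probe set means, array weights, a variance trend and leaving out each array.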

Additional observations from a re-analysis of the deposited data

Results flagged for a closer look

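For 21 genes the KO minus WT difference in DC was lower than the KO minus WT difference in the progenitors, at an adjusted p under 0.05 in a limma fit whose spread comes from the progenitor arrays alone. Among initiation and helicase genes the estimates were Mcm2 -0.83, Mcm3 -0.57, Mcm4 -0.49, Mcm5 -0.66, Mcm6 -0.86, Mcm7 -0.75, Cdc45 -0.60, Gins1 -0.78, Mcm10 -0.42 and Ticrr -0.59 on the log2 scale. Among polymerase and fork genes they were Pola2 -0.45, Prim1 -0.66, Pold2 -0.37, Pole -1.11, Rpa2 -0.58 and Lig1 -0.70. Among chromatin and nucleotide genes they were Chaf1a -0.77, Dtl -0.86, Rrm1 -0.52, Rrm2 -0.78 and Tyms -0.60. Each rests on 1 WT and 1 KO array of DC, with no replicate check there, so any difference between those 2 samples or arrays enters it. Gins1 was below the array median on both.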

How the results depend on the processing

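The count of genes called higher stayed between 37 and 47 at the first step, 25 and 40 at the second and 44 and 47 over the span, and that of genes lower in DC between 40 and 47. This last 40 came with the filter set on every array, which takes members below an array median out of the fit. The 1 gene called lower from Pre CFU-E to CFU-E went to 0 with arrays centred on their median, with no filter and with only the 2 stages compared, and leaving out 1 array gave 0 to 1. Leaving out 1 array gave 5 to 11 genes with a smaller second step (5 without WT Pre CFU-E), 0 to 1 gene higher in DC than in progenitors (0 without WT DC) and 10 to 30 genes with a lower KO effect in DC (10 without WT Pre CFU-E, 12 without KO Pre MegE, 30 without KO CFU-E). That last count was 33 after quantile normalization and 32 with array weights. For it only progenitor arrays could be left out, because the term needs both DC arrays. In the DC pair 31 genes were lower past the smaller fold limit tried, which lies under 1.5-fold. No share over all tested genes is given at that limit, so the 31 cannot be set against a background. The 1.77% of all tested genes applies to 1.5-fold only. Genotype differences that are not called changed sign in Gins3 (0.0123) and Orc6 (0.0370) with array weights in KO against Het. Leaving out 1 array gave values on both sides of 0 for Pole2 in KO against WT (-0.1495 to 0.0563), for Rpa2 (-0.0089 to 0.1029) and Rpa3 (-0.2325 to 0.0387) in Het against WT, and for Gins3 (-0.0865 to 0.0354), Fen1 (-0.0973 to 0.0490) and Orc6 (-0.0893 to 0.0761) in KO against Het. In the DC pair quantile normalization turned Tk1 to 0.0498 and Cdt1 to 0.0485. The causes of these changes were not tested. With 1 DC array left out, the lone array is assumed to vary like the progenitors. No paired analysis was possible because each group has 1 array and the labels give no replicate numbers to pair. Genotype is a term of the stage fit, and without it 41, 38 and 47 genes were called higher at the first step, the second step and over the span.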
